A study of Mus musculus with 6 samples.

Results

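The miR-10 miRNAs of the Hox loci were followed in small RNA libraries of mouse brain. They were taken as the mature miRNAs whose names begin with miR-10a, miR-10b, miR-196a or miR-196b, with 1 entry kept per name. Of 622 mature names in the tables, 2 met this rule, miR-10a-5p and miR-10b-5p, and both were abundant enough to be tested. The miR-196 miRNAs and the opposite arms of the miR-10 hairpins were not analysed here. The libraries came from brain of C57BL/6J mice, an inbred strain, with 3 in each of 2 groups. The first group, numbered 3, 6 and 7, had a sham operation and no treatment. The second, labelled GCI and numbered 1, 2 and 3, had both carotid arteries ligated for 20 minutes and is the cerebral ischemia-reperfusion group of the study, whose aim was to compare miRNA content between the 2. No transgene or deletion is given for either group. The sources used here do not give the age and sex of the mice, the length of reperfusion or the part of the brain that was taken. They also do not say whether each library is 1 animal, so the p-values reflect only the spread among these samples, which may be technical.

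Hox genes lie in clusters and set position along the head-to-tail axis of the embryo. They are expressed in the hindbrain and spinal cord and are largely silent in the forebrain and midbrain. miRNA genes within the clusters tend to share the position of their neighbouring Hox genes, so miR-10a and miR-10b are known from spinal cord and hindbrain and can serve as a mark of caudal tissue in a piece of brain. They are not particular to nervous tissue, and endothelium, muscle and blood-forming cells also express them. A miRNA pairs with target mRNAs mainly through its seed, bases 2 to 8 from the 5′ end, and miR-10 is known to target Hox mRNAs in vertebrate embryos.

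The mature sequences are shown because they set what the counts of the pair can tell apart, with the seed in capitals (5′ to 3′, RefSeq on GRCm38.p6).
miR-10a-5p: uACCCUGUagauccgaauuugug
miR-10b-5p: uACCCUGUagaaccgaauuugug
Both are 23 bases long and the same at 22 of 23 positions. They differ by the substitution U12A, with the miR-10a-5p base first, counted from 1 at the 5′ end. The seed ACCCUGU was thus shared, and among the 519 measured names with a RefSeq mature sequence these were the 2 that carried it. The ends to which adapters are joined are also the same in both. The sources used here do not say how reads with a mismatch were assigned, so a part of the counts may be shared between the 2.

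The hairpins show that the near-identical guide strands, here in capitals, come from precursors with different loops.
Mir10a: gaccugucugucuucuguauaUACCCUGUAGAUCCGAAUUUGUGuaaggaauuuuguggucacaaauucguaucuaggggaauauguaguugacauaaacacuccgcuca
Mir10b: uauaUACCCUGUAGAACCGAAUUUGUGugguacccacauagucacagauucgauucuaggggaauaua
Mir10a lies on the plus strand at chr11:96317165-96317274 of GRCm38, in the Hoxb cluster. In GENCODE vM21 it is outside other genes, 993 bp before the start of Hoxb4 and 11044 bp beyond the end of Hoxb5, both on the same strand. Mir10b lies on the plus strand at chr2:74726070-74726137, in the Hoxd cluster. It falls within an intron of Hoxd4, spanned by 2 of its 3 annotated transcripts, and within an intron of Hoxd3, spanned by 1 of 6. The counts do not show from which transcript a mature miRNA came.

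Relatives by sequence that lie outside Hox clusters served for comparison. miR-99a, miR-99b and miR-100 lack 1 base near the 5′ end and so have another seed, and miR-125a and miR-125b differ more.
miR-99a-5p: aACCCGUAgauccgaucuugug
miR-99b-5p: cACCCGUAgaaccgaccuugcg
miR-100-5p: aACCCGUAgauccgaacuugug
miR-125a-5p: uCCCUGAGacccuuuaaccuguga
miR-125b-5p: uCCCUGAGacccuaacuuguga
Against miR-10a-5p the fewest single-base edits were 3 for miR-100-5p, 4 for miR-99a-5p, 6 for miR-99b-5p and miR-125b-5p, and 9 for miR-125a-5p, compared with 1 for miR-10b-5p.

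The libraries held 1423905 to 2023475 counts with 1 entry per name, and 599 to 612 names were detected in each. The 3 GCI libraries differed more from each other than the sham libraries did, by chi-square per degree of freedom of a pair of libraries (214 to 611 against 44.6 to 69.0). Library 2 was the one whose miR-10 values lay nearest to sham. Of 440 tested miRNAs, the quasi-likelihood test of edgeR, adjusted over all of them by Benjamini-Hochberg, called 10 (2.27%), all higher in GCI.

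Both miR-10 miRNAs were present in every library at low to moderate levels, and both had the higher mean in GCI, but neither passed the test. Levels are given as CPM, the read count relative to library size, after TMM scaling, a correction for library composition. By mean level over the 6 libraries miR-10a-5p stood 172nd and miR-10b-5p 180th of 622 names. Together they made up 230 to 290 CPM in the sham libraries and 275 to 528 CPM in the GCI libraries. In brain tissue taken as a whole, fewer cells of a type and less RNA per cell cannot be told apart.

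miR-10a-5p, the miRNA of the Hoxb cluster, measured 131 CPM in sham library 3, 133 CPM in library 6 and 131 CPM in library 7. It measured 299 CPM in GCI library 1, 134 CPM in library 2 and 192 CPM in library 3. Libraries 1 and 3 were thus above the 3 sham values and library 2 was level with them. The counts behind these values were 218, 194 and 228 in sham and 446, 215 and 397 in GCI. With exact 95% Poisson intervals, which cover only counting error, as PCR copies of 1 molecule are counted again, library 1 (271 to 328 CPM) and library 3 (173 to 211 CPM) lay above the highest sham interval (115 to 153 CPM in library 6). The interval of library 2 (117 to 153 CPM) covered all 3 sham values. The standard deviation of the 3 sham values, 0.999 CPM, was smaller than the counting error of any 1 of them. It is therefore a poor measure of the spread between libraries.

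**Figure D1:**
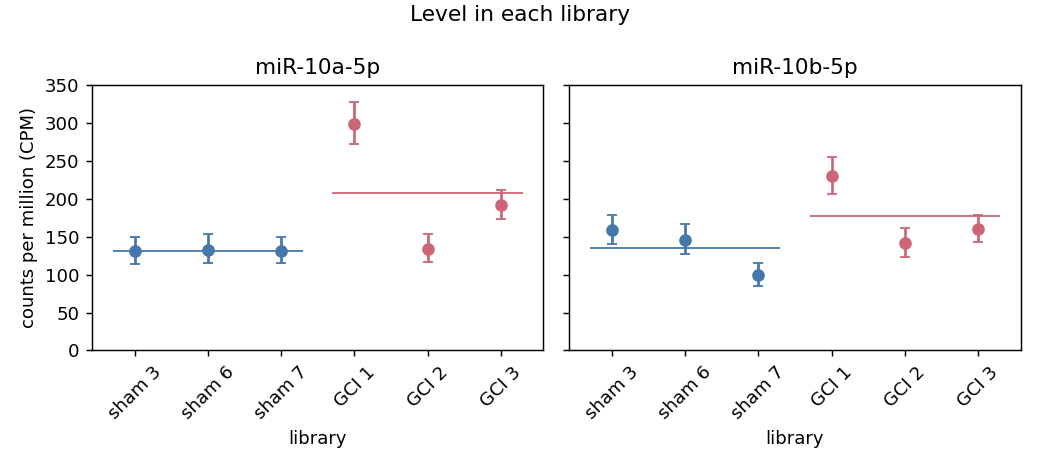
Level of miR-10a-5p (left) and miR-10b-5p (right) in each library, in CPM on a linear axis from 0, with sham libraries in blue and GCI libraries in red; bars are exact 95% Poisson intervals and horizontal lines are group means. For both miRNAs GCI library 1 is the highest of the 6 (299 and 230 CPM), and GCI library 2 lies among or next to the sham libraries.

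The mean of miR-10a-5p was 132 ± 0.999 CPM in sham and 208 ± 83.5 CPM in GCI (SD, n = 3 each), a fitted ratio of 1.58. The log2 fold change was 0.66 ± 0.29 (SE), with a 95% interval of 0.016 to 1.30 before adjustment. Its adjusted p was 0.291 (unadjusted 0.0456) (edgeR, quasi-likelihood, Benjamini-Hochberg). An exact permutation test of log2(CPM + 1), two-sided, gave p = 0.1, the smallest that 3 against 3 libraries allow. The groups did not overlap, with GCI higher, as held for 45 of the 440 tested miRNAs (10.2%), so this alone does not set miR-10a-5p apart. The gap between the highest sham and the lowest GCI library was 1.21 CPM, far below counting error, and with total-count scaling the groups overlapped.

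The higher mean of miR-10a-5p rested on GCI libraries 1 and 3, which stood at 2.27 and 1.46 times the sham mean, while library 2 stood at 1.02. Without library 1 the log2 fold change dropped to 0.32 (adjusted p = 0.552, edgeR, Benjamini-Hochberg). Without library 2 it was 0.89 and passed (adjusted p = 0.0228, edgeR, Benjamini-Hochberg). In that fit 58 of 456 miRNAs (12.7%) were called higher, so leaving out library 2 raised the number of calls across the table as well.

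miR-10b-5p, the miRNA of the Hoxd cluster, measured 159 CPM in sham library 3, 146 CPM in library 6 and 98.98 CPM in library 7. It measured 230 CPM in GCI library 1, 141 CPM in library 2 and 160 CPM in library 3. The groups overlapped, with library 1 above the rest and sham library 7 below the rest. The counts were 264, 213 and 172 in sham and 343, 227 and 331 in GCI. Within sham the spread was wider than counting error, since the Poisson intervals of library 7 (84.7 to 115 CPM) and library 3 (140 to 179 CPM) were apart.

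The mean of miR-10b-5p was 134 ± 31.4 CPM in sham and 177 ± 46.5 CPM in GCI (SD, n = 3 each), a fitted ratio of 1.32. The log2 fold change of 0.40 ± 0.27 (SE) had a 95% interval of −0.20 to 0.99. It did not pass the test (adjusted p = 0.440, edgeR, Benjamini-Hochberg), and the exact two-sided permutation p was 0.4. Without GCI library 1 the log2 fold change was 0.18, and without sham library 7 it was 0.22. The interval with all libraries thus leaves room for a fall as well as for a rise.

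Of the 2 members, edgeR with Benjamini-Hochberg adjustment thus called 0, against 2.27% of all tested miRNAs, and DESeq2 and limma-voom also called 0 (5.91% and 2.27% of all). At an unadjusted p under 0.05 edgeR gave 1 of the 2, miR-10a-5p, against 46 of 440 higher (10.5%). Of the 440, 45 tested miRNAs had a log2 fold change above that of miR-10a-5p and 88 one above that of miR-10b-5p. Over all 440, the median log2 fold change was −0.054, and 197 (44.8%) were above 0.

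**Figure D2:**
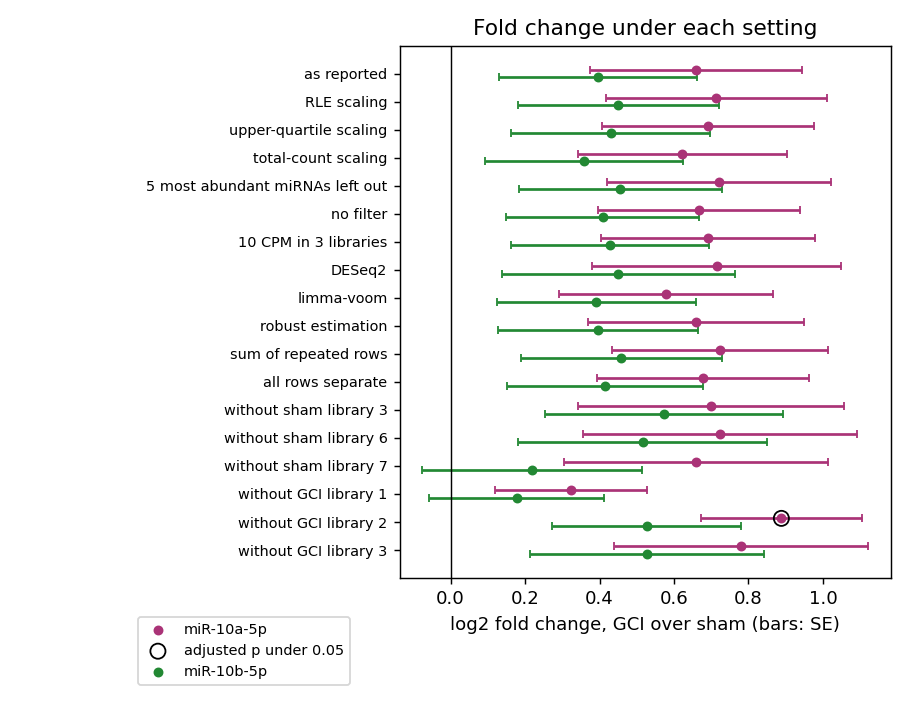
Log2 fold change of miR-10a-5p (purple) and miR-10b-5p (green), GCI over sham, as reported and under each alternative; bars are standard errors and a black ring marks an adjusted p under 0.05. All values lie above 0, and the ringed value is that of miR-10a-5p without GCI library 2 (0.89).

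The share of miR-10a-5p within the pair does not depend on scaling, and it varied within both groups. miR-10a-5p held 45.2% of the pair's counts in sham library 3, 47.7% in library 6 and 57.0% in library 7. It held 56.5% in GCI library 1, 48.6% in library 2 and 54.5% in library 3. The highest share was that of a sham library, and the groups overlapped. By exact Clopper-Pearson 95% intervals, which cover counting error only, the share was above 50% in sham library 7 (52.0% to 61.9%) and in GCI libraries 1 (53.0% to 60.0%) and 3 (50.8% to 58.2%). It was below 50% in sham library 3 (40.7% to 49.8%). The mean share was 49.96% ± 6.21 in sham and 53.2% ± 4.10 in GCI (SD, n = 3 each), a difference smaller than the spread between replicates. As a log2 ratio of miR-10a-5p to miR-10b-5p, the group means differed by 0.19. Within sham miR-10b-5p ranged from 98.98 to 159 CPM while miR-10a-5p stayed at 131 to 133 CPM.

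**Figure D3:**
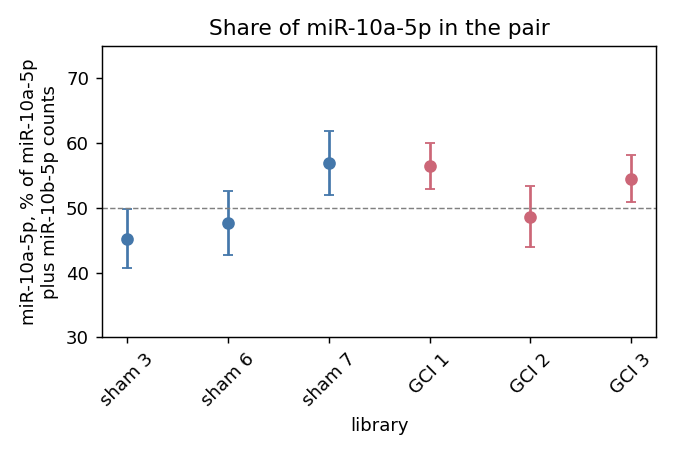
Share of miR-10a-5p in the summed counts of miR-10a-5p and miR-10b-5p, in percent, for each sham (blue) and GCI (red) library; bars are exact 95% binomial intervals, the dashed line is 50%, and the axis starts at 30%. The groups overlap, with the lowest (45.2%) and the highest share (57.0%) both in sham.

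Relatives of the pair outside the Hox clusters were together more abundant and had log2 differences of both signs. Of 11 measured arms of miR-99a, miR-99b, miR-100, miR-125a and miR-125b, 10 were tested. Of these, 0 were called in either direction by edgeR with Benjamini-Hochberg adjustment, and 0 had an unadjusted p under 0.05; DESeq2 and limma-voom also called 0. The log2 differences were above 0 for 4 and below 0 for 6, from −0.81 to 0.29 with a median of −0.23, compared with −0.054 over all tested miRNAs. In summed level the relatives held 12946 to 14619 CPM in sham and 11673 to 14928 CPM in GCI, with overlap. CPM of different miRNAs compare only roughly, since adapter ligation favours some ends.

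The 4 most abundant relatives can be set beside the pair. miR-100-5p, closest to miR-10a-5p in sequence among them, measured 3690 ± 590 CPM in sham and 4525 ± 190 CPM in GCI (log2 difference 0.29 ± 0.19, SE). miR-99a-5p measured 6754 ± 185 and 5316 ± 1482 CPM (−0.35 ± 0.23). miR-99b-5p measured 2537 ± 77.7 and 2315 ± 157 CPM (−0.13 ± 0.17), and miR-125b-5p 347 ± 56.2 and 363 ± 76.4 CPM (0.065 ± 0.23). None passed, with adjusted p-values of 0.423 to 0.901 (edgeR, Benjamini-Hochberg). Whether the pair and these relatives differ in their change was not tested.

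**Figure D4:**
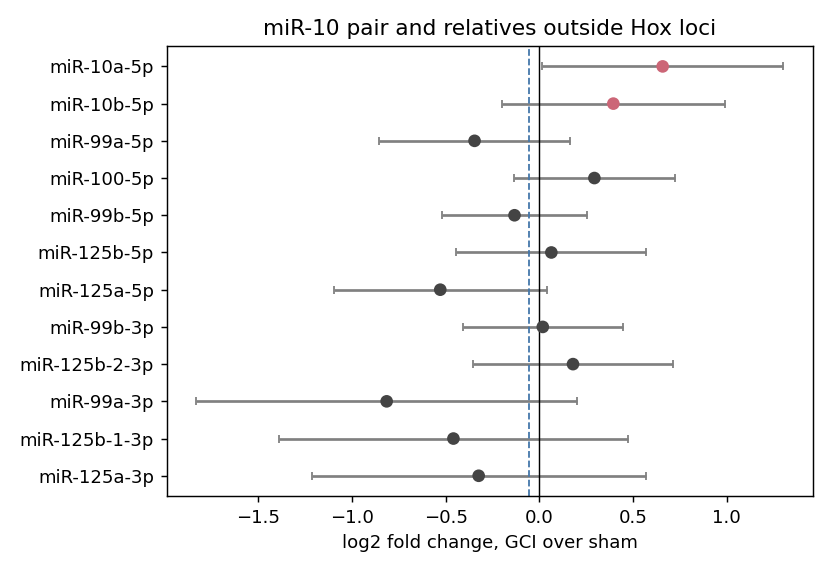
Log2 fold change, GCI over sham, of the miR-10 pair (red) and of 10 tested relatives outside the Hox clusters (dark grey, by falling mean level), with 95% intervals before adjustment for multiple tests. The dashed blue line is the median of all 440 tested miRNAs (−0.054); the pair has the 2 highest values (0.66 and 0.40), and among the 12 intervals that of miR-10a-5p alone lies above 0.

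The miRNAs whose levels followed those of miR-10a-5p most closely across the 6 libraries were named by the root mean square difference of log2(CPM + 1), each miRNA centred on its own mean, among non-members with a mean of at least 10 CPM. For miR-10a-5p these were miR-93-5p (0.071), miR-199a-3p and miR-199b-3p (both 0.081), miR-16-5p (0.095) and miR-142a-3p (0.098). miR-93-5p and miR-16-5p are widely expressed in dividing and blood cells, miR-199a-3p and miR-199b-3p are found in mesenchymal cells, and miR-142a-3p is a miRNA of blood-forming cells. miR-199a-3p and miR-199b-3p had the same counts and are 1 measurement. miR-93-5p, for example, measured 243 to 251 CPM in sham and 627, 244 and 355 CPM in GCI libraries 1, 2 and 3. All 5 thus had their highest value in GCI library 1 and their second highest in library 3. None passed over all 6 libraries (adjusted p 0.209 to 0.337, edgeR, Benjamini-Hochberg). All 5 passed without GCI library 2 (0.0151 to 0.0263), a fit in which 12.7% of all miRNAs were called higher. They were chosen for their likeness to miR-10a-5p over the same libraries, so their sharing its order and its call in that fit follows from the choice.

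For miR-10b-5p the nearest were miR-466q (0.13), miR-879-3p (0.15), miR-299a-3p (0.17), miR-340-5p (0.17) and miR-16-1-3p (0.17). These distances were larger than those of the 5 nearest to miR-10a-5p. miR-340-5p, the most abundant, measured 5313, 4483 and 4199 CPM in sham and 9696, 4964 and 5727 CPM in GCI, and adjusted p-values of the 5 were 0.311 to 0.854 (edgeR, Benjamini-Hochberg). The 2 members were not each other's nearest miRNAs. At a distance of 0.26, miR-10b-5p came 57th in order from miR-10a-5p, and miR-10a-5p came 38th from miR-10b-5p. These are descriptions over 6 libraries that share their depth and scaling.

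**Figure D5:**
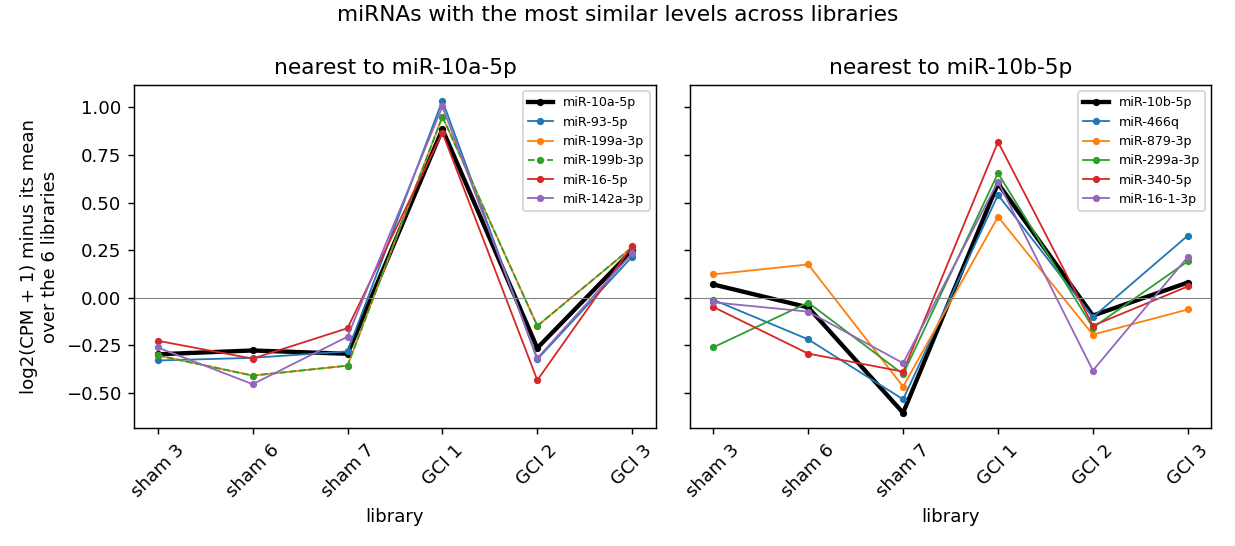
log2(CPM + 1) of miR-10a-5p (left, black), miR-10b-5p (right, black) and the 5 miRNAs nearest to each, centred on the mean over the 6 libraries; lines join the libraries only to guide the eye, and the lines of miR-199a-3p and miR-199b-3p coincide. All lines peak in GCI library 1; on the left the 3 sham libraries and GCI library 2 lie together, and on the right sham library 7 lies lowest for miR-10b-5p.

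Markers of other cell types were read for the order of GCI libraries seen for miR-10a-5p, with library 1 highest, then 3, then 2. The summed levels of those of oligodendrocytes, red blood cells and leukocytes shared it, though not each of their members did. In these sums libraries 1 and 3 lay above every sham library and library 2 within the sham range. The epithelial and muscle sums, taken up below, had this GCI order too but stood differently to sham. In the forebrain sum GCI libraries 1 and 3 were nearly level (14167 and 14160 CPM), with library 2 at 13866 CPM. How many of all tested miRNAs had this order was not counted, so sharing it does not set a list apart. The oligodendrocyte list, of cells that abound in white matter, had a summed level of 1149 to 1203 CPM in sham. It stood at 2704, 1167 and 1773 CPM in GCI libraries 1, 2 and 3. Of its 4 tested members 0 were called and 3 were above 0. Its most abundant were miR-219a-2-3p (600 ± 48.1 CPM in sham and 1226 ± 711 CPM in GCI) and miR-338-5p (300.4 ± 17.6 and 331 ± 67.8 CPM). The erythrocyte list stood at 486 to 554 CPM in sham and at 833, 537 and 707 CPM in GCI libraries 1, 2 and 3. Of its 4 tested members 0 were called and 3 were above 0, led in level by miR-451a (300.5 ± 29.0 and 266 ± 14.1 CPM) and miR-486b-5p (101 ± 12.8 and 200.1 ± 73.4 CPM). The log2 differences of the 4 were −0.17 to 1.01, with miR-451a the lowest. The list holds miR-486a-5p and miR-486b-5p as separate entries. Reads shared by both would count more than once in the sum and among the members above 0. The leukocyte list stood at 394 to 467 CPM in sham and at 672, 398 and 483 CPM in the same libraries. This list holds miR-142a-3p, named above for its likeness to miR-10a-5p, so the 2 readings are not separate. Of its 4 tested members 0 were called and 3 were above 0, led by miR-150-5p (330.4 ± 36.5 and 341 ± 56.9 CPM) and miR-142a-5p (40.2 ± 5.69 and 91.6 ± 50.6 CPM). The member below 0 was miR-223-3p, with a log2 difference of −0.96, lower in GCI. In GCI libraries 1, 2 and 3, miR-451a measured 256, 260 and 282 CPM, against the order of the erythrocyte sum. miR-338-5p (410, 289 and 295 CPM) and miR-150-5p (407, 308 and 309 CPM) were high in library 1 and nearly level in the other two. None of these markers was at 0 in all libraries, and the part of these cells in the miR-10 values was not tested.

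A muscle marker stood apart in GCI library 1, the library in which both miR-10 miRNAs were highest. miR-206-3p, a miRNA of skeletal muscle, measured 1432 CPM there, 92.9 CPM in library 2 and 155 CPM in library 3, compared with 110 to 226 CPM in sham. Without library 1 its log2 difference went from 1.82 to −0.33. miR-1a-3p, shared by skeletal and heart muscle, measured 13943 ± 2659 CPM in sham and 14982 ± 4585 CPM in GCI. The summed level of the 5 measured muscle markers was 11361 to 16751 CPM in sham and 10055 to 20272 CPM in GCI, with library 1 the highest and 0 of 5 called. miR-208a-3p and miR-208b-3p of heart muscle were not analysed here. The part of muscle tissue in the miR-10 values was not tested.

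Epithelial and sensory organ markers separated the groups. All 8 rose by edgeR with Benjamini-Hochberg adjustment, against 10 of all 440 tested miRNAs called (2.27%). The list was chosen with earlier results of these data known, so its calls may follow from that choice. Summed, the 8 stood at 1982 to 7191 CPM in sham and 50923, 22069 and 27224 CPM in GCI libraries 1, 2 and 3. miR-182-5p (1702 ± 829 and 11295 ± 4717 CPM) and miR-200a-3p (1334 ± 931 and 8567 ± 3053 CPM) were the most abundant. Both missed the threshold without sham library 6, GCI library 1 or GCI library 3 (adjusted p 0.0534 to 0.226, edgeR, Benjamini-Hochberg). In these fits 0, 1 and 0 of all tested miRNAs were called. The sum of the 8 in GCI library 2 was above that of every sham library. In the same library miR-10a-5p was 1.21 CPM above the highest sham value and miR-10b-5p lay within the sham range. The summed level of the 8 and miR-10a-5p had the same order of GCI libraries, with 1 highest, then 3, then 2. The part of epithelial or sensory tissue in the miR-10 values was not tested.

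The remaining lists had 0 calls with edgeR. The vessel wall list, whose endothelium is also known to express miR-10, stood at 35215 to 49859 CPM in sham and 26838 to 45278 CPM in GCI (0 of 6 tested called, 3 above 0). It was led by miR-143-3p (39285 ± 7586 and 31321 ± 8785 CPM) and miR-126a-3p (3096 ± 251 and 3391 ± 597 CPM). The neuron list stood at 95327 to 112033 and 90519 to 102105 CPM (0 of 7 called, 1 above 0), led by miR-9-5p (69858 ± 11037 and 67551 ± 5645 CPM) and miR-124-3p (18279 ± 2467 and 14730 ± 2307 CPM). A list known from forebrain stood at 15959 to 17830 CPM in sham and at 13866 to 14167 CPM in GCI (0 of 6 called, 2 above 0). The median log2 difference of this list was −0.055, near the −0.054 of all tested miRNAs. Its leading members were miR-128-3p (8160 ± 420 and 5860 ± 1401 CPM), which the neuron list also holds, and miR-132-3p (4566 ± 552 and 3757 ± 737 CPM). These moved differently between GCI libraries, with miR-128-3p at 4591, 7363 and 5627 CPM in libraries 1, 2 and 3 and miR-132-3p at 4594, 3206 and 3470 CPM. The choroid plexus and ependyma list stood at 2857 to 3460 and 3654 to 5145 CPM (0 of 4 tested called, 2 above 0), led by miR-34c-5p (1439 ± 192 and 2375 ± 680 CPM) and miR-1298-5p (1315 ± 120 and 1453 ± 161 CPM). Over the marker lists other than the epithelial one, limma-voom called 0 and DESeq2 called 2. These were the erythrocyte entries miR-486a-5p and miR-486b-5p, which may share reads. Each of these lists held 0 to 2 members with an edgeR p under 0.05 before adjustment. Without GCI library 2, edgeR with Benjamini-Hochberg adjustment called 100 of 456 miRNAs, 58 of them (12.7%) higher in GCI. Among the 100, miR-219a-2-3p, miR-486b-5p, miR-142a-5p and miR-34c-5p were higher and miR-99a-5p and miR-128-3p lower in GCI (adjusted p 0.00696 to 0.0382, edgeR, Benjamini-Hochberg). With the dissected part of the brain not given, a difference in how much caudal tissue each library held and a difference in expression cannot be told apart.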

How the data were processed

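Small RNA was sequenced from 6 mouse brain samples. Per the labels' protocols, libraries were made from TRIzol-extracted total RNA using an NEBNext kit for small RNA, with size selection of the PCR product. Per the submitters' processing notes cutadapt and Bowtie were used; the sources used here do not give versions, genome build, miRNA reference or the assignment of mismatched reads. As deposited, the values are read counts per mature miRNA entry, not normalized, as the values show. All 6 tables held the same 727 entries. Where a name was repeated (50 names), the entry with the highest total was kept, as the rule for the members asks, leaving 622 names.

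The quasi-likelihood test of edgeR 4.0.16 (R 4.3.3) was run on the counts of all 6 libraries with the group alone, after the default filterByExpr (minimum count of 10 and total of 15, which kept 440 miRNAs) and TMM scaling, with Benjamini-Hochberg adjustment over all of them and a threshold of 0.05. The common biological coefficient of variation was 25.3%. Standard errors come from the F statistic. No 2 libraries of a group agreed within sampling noise (chi-square per degree of freedom at least 44.6). The members and lists were chosen with earlier results of these data known. Named beside the members are the 5 nearest miRNAs of each, the 4 most abundant relatives and the 2 most abundant members of each marker list. Alternatives were other scalings, filters and tools (DESeq2 1.42.0, limma-voom in limma 3.58.1), other handling of repeated names, the pair summed, and each library left out. Summed levels and ratios of the members were given no test. A 3p arm ratio could not be computed from the entries used here. Sequences are from RefSeq on GRCm38.p6 and gene positions from GENCODE vM21 on GRCm38.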

Additional observations from a re-analysis of the deposited data

How the results depend on the processing

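The log2 fold changes of miR-10a-5p and miR-10b-5p stayed above 0 in all 17 alternative fits run on each. With the pair summed into 1 entry the log2 fold change was 0.55 (adjusted p = 0.303, edgeR, Benjamini-Hochberg). Under the 11 alternatives that kept all libraries, those of miR-10a-5p and miR-10b-5p were 0.58 to 0.72 and 0.36 to 0.46, and neither passed. With each library left out in turn they were 0.32 to 0.89 and 0.18 to 0.57, and miR-10a-5p passed without GCI library 2 alone, so that the number of members called was 0 to 1. The log2 ratio of summed levels of the pair was 0.24 to 0.72, and the difference in log2 of miR-10a-5p over miR-10b-5p 0.052 to 0.39, with single libraries left out. The number of all miRNAs called, 10 as reported, was 4 with RLE scaling, 4 without the 5 most abundant miRNAs, 26 with DESeq2 and 0 to 100 with single libraries left out (0 without sham library 6 or GCI library 3, 1 without GCI library 1, 100 without library 2). Scaling moved the median of all miRNAs by less than 0.1.

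Of the 32 other named miRNAs, those that changed sign were not called in any of these fits. With repeated entries summed, miR-9-5p stood at 0.015. With single libraries left out the log2 difference was −0.12 to 0.24 for miR-125b-5p, −0.099 to 0.088 for miR-9-5p, −0.026 to 0.28 for miR-338-5p, −0.086 to 0.17 for miR-150-5p, −0.076 to 0.33 for miR-1a-3p, −0.33 to 2.34 for miR-206-3p and −0.079 to 0.29 for miR-879-3p. Without GCI library 2, 11 of the 32 newly passed. With RLE or upper-quartile scaling, without the 5 most abundant miRNAs or with all entries separate, miR-200a-3p missed the threshold (adjusted p 0.0551 to 0.0631, edgeR, Benjamini-Hochberg). The cause was not tested. No paired analysis was possible because the groups share 1 replicate number. Depth limits each miR-10 value to the Poisson intervals given above.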
